A study of Mus musculus with 16 samples.

Results

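The livers compared here came from mice of the delHox line, which carries an engineered allele of the gene for ceramide synthase 2 (CerS2) and is labelled CerS2 Del, and from wild-type mice labelled CerS2 WT. The 2 groups were taken from the condition in the sample labels and hold 4 livers each, 8 of the 16 in the series. All 16 mice were male, 6 weeks old and of a mixed background of 75% C57BL/6 and 25% SV129. The remaining 8 livers, 4 of a line labelled CerS2 H/A and 4 of a line labelled CerS2 Flox (condition delneo), enter the probe filter, the principal components, the shared estimate of spread and, near the end, comparisons with Del and of Flox with WT. The labels do not say which part of the gene the delHox allele lacks, nor what the delneo and H/A alleles hold. Total liver RNA was hybridised to 1-colour expression arrays, 1 array per mouse. Replicates were numbered 1 to 4 in a group in the order of the labels, and values on arrays are listed below in that order. The p-values and intervals rest on 1 spread per gene pooled over all 16 livers, so the Flox and H/A livers count in it too.

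Ceramide synthases join a fatty acid to a sphingoid base. CerS2 is the main family member in liver and takes very long acyl chains, so ceramides, sphingomyelins and glycosphingolipids of mouse liver normally carry such chains. The protein spans the membrane of the endoplasmic reticulum several times, holds its catalytic residues in a conserved motif, and also has a region like a homeobox domain. Mice without CerS2 are known for liver cells that divide, stress responses and tumours later in life. No probe of the array could be matched to Cers2 itself, so the level of the targeted gene was not analysed here.

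Values are log2 expression values from the deposited table, in which each array had the same median of 4.36. A gene was called, and "rose" and "fell" are used of it, when the difference Del minus WT passed a limma test across all genes at a Benjamini-Hochberg adjusted p under 0.05. The share of spots well above background was 51.6% to 60.3% on the Del arrays and 55.5% to 59.3% on the WT arrays, no spot was saturated, and the number of arrays limits the precision. For 6 samples, Del replicate 1 and WT replicate 3 among them, the scanner file listed for the sample is that of another array, and for this pair it is the other's. All 16 columns of the table correlated best with the file whose slide and position the label gives (r from 0.884 to 0.994), and the table was used throughout. When the files were taken as listed, 1 gene was called. Without the 6 samples, 1258 genes were called.

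The first principal component of the 16 arrays held 43.0% of the variance and separated the Del arrays, with scores from -92.6 to -32.2, from the WT arrays, with scores from 10.97 to 59.4. Del replicate 3 lay farthest out on the Del side at -92.6. WT replicate 2 lay nearest the Del arrays at 10.97, and the other WT arrays lay at 46.8 to 59.4. Its outlying readings among the genes named below are given in the closing section, and the counts of the main groups are given there without it. Del replicate 1 and WT replicates 1 and 2 were on slide 1 by the labels, and the other 5 arrays on slide 2.

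**Figure D1:**
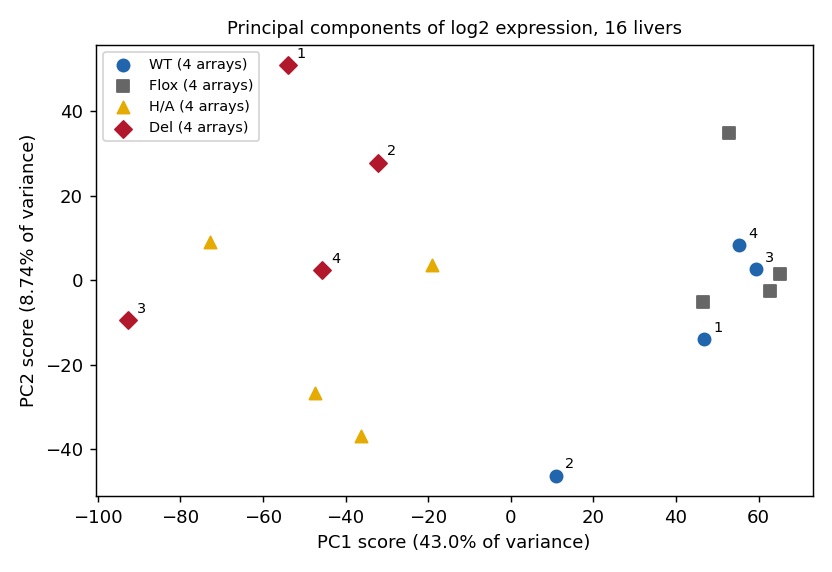
Scores of the 16 liver arrays on the first (x axis) and second (y axis) principal component of the log2 values, with WT and Del arrays numbered by replicate. The 4 Del arrays lie below -32 on the first component and the 4 WT arrays above 10, with WT replicate 2 closest to the mutant arrays.

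Del liver differed broadly from WT liver. Of 31484 genes tested, 4165 were called (13.2%), 2786 higher in Del (8.85%) and 1379 lower (4.38%), and 2725 of the called genes have a symbol. Counts of the gene lists below are to be read beside these shares, and some genes belong to more than 1 list. The lists hold only genes with a symbol, 17666 of those tested, which were called more often than the rest. The shares of rises and of falls among genes with a symbol were not computed. A difference of at least 1 log2 was seen for 1134 of the rises and 456 of the falls, and of at least 2 log2 for 295 and 143. The median difference over all genes tested was -0.11. In 3532 of the 4165 called genes, no Del array overlapped any WT array. Over all genes tested, every Del array lay above every WT array in 10.6% and below every WT array in 7.24%. Genes named below were chosen chiefly by a large difference or a small p. A lack of overlap in them is a description and adds no support of its own. The split of calls was 66.9% higher with the table's values, 80.5% (1806 higher and 438 lower) without scaling between arrays, and 55.4% (3089 higher and 2482 lower) with slide as a block. The count moved to 2189 without Del replicate 3, 2768 without WT replicate 1, 7174 without WT replicate 2, 2573 without WT replicate 3 and 2662 without WT replicate 4. Within slide 1, where Del has 1 array, 141 genes were called, and within slide 2, 2550.

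The largest named rises included a stress-response transcription factor, glutathione transferases, a multidrug export pump and mitotic genes. Atf3, a transcription factor of the ATF/CREB family that is induced by cell stress, read 2.89, 3.23, 1.23 and 2.24 on the WT arrays, where it was not well above background, and 7.28, 7.30, 7.80 and 7.88 on the Del arrays. This is a rise of at least 17.1-fold (limma adjusted p = 1.2e-05). Every such "at least" value sets the mean of the bright group against the dimmest signal well above background on each array of the dim group, or the gene's own reading if higher. Ly6d, a surface protein of the Ly6 family that is low in adult liver, read 6.17, 5.85, 6.18 and 6.45 in WT and 11.41, 10.46, 12.27 and 10.54 in Del, a log2 difference of 5.01 (95% interval 4.25 to 5.76, limma adjusted p = 2.1e-06). The alpha-class glutathione transferases Gsta1 and Gsta2, which conjugate glutathione to electrophiles, were 4.74 and 4.33 higher. None of these 4 genes had a Del array within the WT range.

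Abcb1b, a multidrug export pump that is induced in stressed and regenerating liver, was at the bottom of the scale on all WT arrays and read 7.12, 1.83, 7.16 and 6.52 in Del. It rose at least 4.55-fold, although Del replicate 2, at 1.83, was near the WT level. Osbpl3, an oxysterol-binding family protein, rose at least 5.08-fold (1.44, 1.65, 1.44 and 1.38 against 6.02, 5.204, 6.88 and 5.16). Gipc2, a PDZ domain scaffold, and Fndc10, a membrane protein, rose by 4.805 and 4.46. Ubd, a ubiquitin-like modifier induced by interferon gamma and TNF, rose by 4.33. Each of these 3 genes was above background on 1 WT array, so their differences rest in part on readings at background. They are not fold sizes, and the same holds below for genes above background on only some arrays of a group. The mitotic genes Ccnb1, Racgap1 and Cdc20 complete the 12 and are described below.

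The 12 largest named falls were 6 small nucleolar RNAs, the steroid dehydrogenases Hsd3b5 and Hsd3b4, the serpins Serpina4-ps1 and Serpina12, the fatty acid elongase Elovl3 and the transporter Slco1a6. Hsd3b5, a male-specific liver keto-steroid reductase of the 3-beta-hydroxysteroid dehydrogenase family, fell from 12.29, 12.39, 11.20 and 12.67 on the WT arrays to 4.46, 5.28, 5.05 and 5.79 on the Del arrays, a log2 difference of -6.99 (95% interval -8.99 to -4.999, limma adjusted p = 2.6e-04). Serpina4-ps1, a pseudogene of the serpin family, read 12.96, 13.58, 11.62 and 13.90 in WT and 6.11, 4.85, 6.16 and 7.72 in Del, a difference of -6.80. The Del and WT arrays of both genes lay more than 3 log2 apart. Hsd3b5 varied most in Flox, with a standard deviation of 2.76, beside 0.73 in H/A, 0.65 in WT and 0.55 in Del. Its interval and p-value rest on the pooled spread. Hsd3b4 was not well above background on any Del array and fell at least 7.65-fold. Slco1a6, an organic anion uptake transporter, fell by 4.65 log2 and was above background on 1 Del array. Serpina12, also called vaspin, fell by 4.38.

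**Figure D2:**
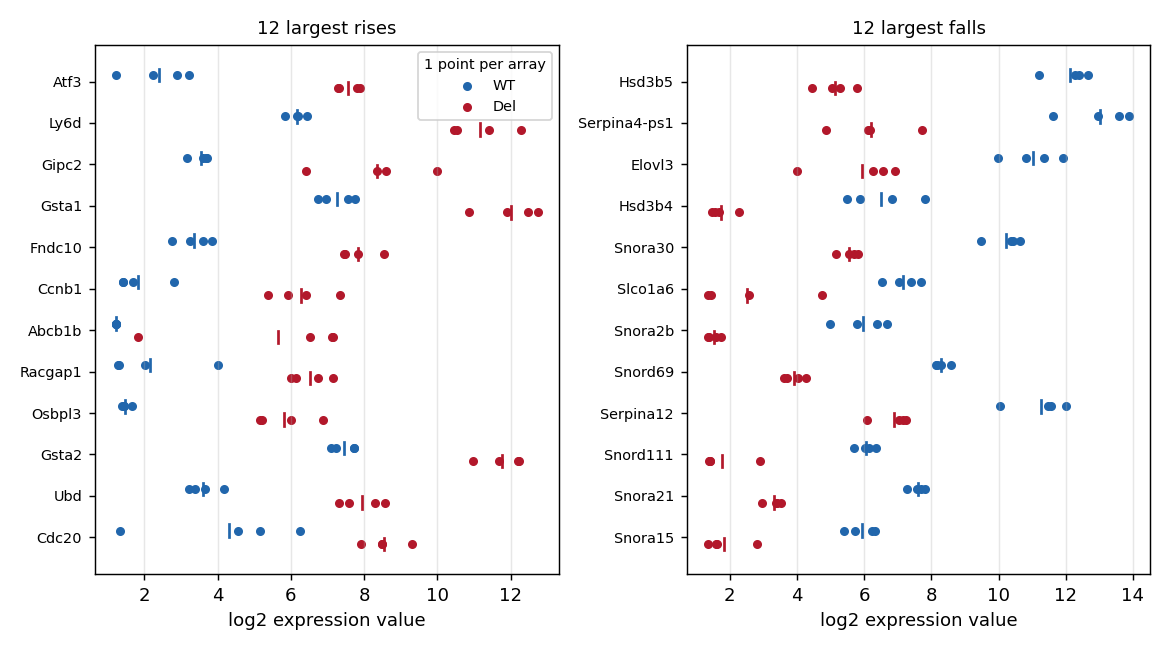
Log2 expression value (x axis) of the 12 largest named rises and the 12 largest named falls, with 1 point per array and a bar at each group's mean. The WT and Del points do not overlap in any of the 24 genes, while Abcb1b in Del (1.83 to 7.16) and Cdc20 in WT (1.34 to 6.24) vary most within a group.

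Cell-division genes rose as a group. Of 53 mitosis genes tested, 41 rose and 1 fell against a background of 8.85% and 4.38%, and the median difference was 2.32 against -0.11 over all genes. Only 25 of the 53 were above background on all 8 arrays, and a gene could pass the filter through its Del arrays alone. This median and the shifts that follow rest in part on readings at background and are not fold sizes. The list's median shift on single arrays was 1.72 to 2.50 in Del and -0.20 to 0.40 in WT, and the within-slide medians were 2.21 and 2.22. With the normexp background correction, the median was 0.67. Ccnb1, the cyclin that activates the kinase of mitotic entry, read 1.42, 2.83, 1.69 and 1.43 in WT and 7.35, 5.93, 6.42 and 5.38 in Del, a rise of at least 6.97-fold (limma adjusted p = 1.2e-04). Cdc20, the activator of the anaphase-promoting complex, rose by 4.23 log2, from 5.16, 6.24, 1.34 and 4.56 to 9.31, 8.50, 8.49 and 7.92. It was above background on 3 WT arrays, whose readings spread more than those of Del. Racgap1, a GTPase-activating protein of cytokinesis, rose by 4.36, with 1 WT array above background.

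Mki67, the proliferation marker Ki-67, read 6.78, 7.43, 6.64 and 6.85 in WT and 9.73, 9.27, 9.25 and 8.87 in Del (log2 difference 2.35, 95% interval 1.80 to 2.91, limma adjusted p = 6.8e-05). Top2a, the topoisomerase that untangles chromosomes, rose by 3.92, and Ccnb2, another B-type cyclin, by 3.63, both being above background on 3 WT arrays. Spindle and chromosome genes were among the calls with the smallest p. The chromosomal passenger protein Incenp rose by 1.77 and the kinesin Kif22 by 2.59. Cdca5, which protects cohesion between sister chromatids, rose at least 3.75-fold, the microtubule-binding Nusap1 at least 4.64-fold and the kinesin Kif20b at least 2.43-fold, none of the 3 being above background on a WT array. Of these genes, no Del array fell within the WT range. The 1 member that fell was the condensin subunit Ncapd2 (-0.70, limma adjusted p = 0.042). With the mean of its probes the direction turned (0.17), and the call was lost without any 1 of H/A replicates 2 and 4 (both -0.70), WT replicates 1 (-0.72), 3 (-0.54) and 4 (-0.65), Del replicates 1 (-0.63) and 3 (-0.56) and Flox replicate 3 (-0.70).

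Promoters of many mitotic genes are known to carry CCAAT boxes, bound by NF-Y, and the cell cycle homology region, whose core is TTTGAA. The 120 bases before the start of 3 of the genes are printed from the RefSeq table of build GRCm38.p6, 5′ to 3′ on the gene's strand, to show how these letters lie in promoters of genes that rose. Capitals mark CCAAT and TTTGAA on either strand, so that ATTGG and TTCAAA are in capitals too.
Ccnb2 (minus strand of chr9:70421555-70421674): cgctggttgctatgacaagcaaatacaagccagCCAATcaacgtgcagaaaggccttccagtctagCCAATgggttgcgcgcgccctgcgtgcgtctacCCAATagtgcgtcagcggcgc
Cdc20 (minus strand of chr4:118437344-118437463): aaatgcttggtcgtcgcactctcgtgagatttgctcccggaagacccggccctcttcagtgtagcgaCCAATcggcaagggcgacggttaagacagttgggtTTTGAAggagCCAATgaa
Top2a (minus strand of chr11:99024190-99024309): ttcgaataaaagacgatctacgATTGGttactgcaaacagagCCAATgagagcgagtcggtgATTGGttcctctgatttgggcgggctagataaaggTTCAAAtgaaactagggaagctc
Ccnb2 has CCAAT at 87, 54 and 21 bases before the start, and Top2a has it on one strand or the other at 98, 78 and 58 bases, with TTTGAA at 23 bases. CCAAT was found in the 250 bases before the start in 30 of 42 mitosis genes with a promoter in the table (71.4%) and in 37.5% of 27025 genes with one. Both motifs were found in 13 of the 42 (31.0%) and in 6.45% of all. Among the 33 genes that rose, 23 held CCAAT (69.7%). A match is a description of the letters and not a bound site.

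Genes of DNA replication moved with the mitotic ones. Of 44 tested, 26 rose and 2 fell, with a median of 0.87, which was 0.46 with the normexp correction. Mcm2, a subunit of the replicative helicase, read 5.89, 5.95, 5.51 and 5.13 in WT and 8.65, 8.22, 8.88 and 8.10 in Del (log2 difference 2.84, 95% interval 2.22 to 3.47, limma adjusted p = 4.0e-05). Chaf1a, which places histones on new DNA, rose by 2.14 and Pold1, the catalytic subunit of DNA polymerase delta, by 1.46. Gins2, another helicase subunit, rose at least 3.55-fold. All 4 were separated between the groups. E2f7, a repressor of the E2F family, fell by 0.79. Without scaling neither fall was called, and 1 was called without WT replicate 1, 3 or 4 or Del replicate 3. Of 44 replication-dependent histone genes tested, which are copied in S phase, 16 rose and 3 fell. H2ac4 rose by 2.24 and the linker histone H1f5 by 1.94, while H2ac19 fell by 0.74, and without scaling no histone gene fell. Histone genes are near copies of each other, so a probe may read more than one. Of 23 recombination repair genes, 6 rose. The checkpoint kinase Chek1 rose by 2.31, with 1 WT array above background.

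Antioxidant genes rose next to the cell-cycle genes. NRF2 is the transcription factor that switches on glutathione, thioredoxin and detoxification genes under oxidative or electrophilic stress. Of 22 of its targets tested, 17 rose and none fell, with a median of 1.24. The list's shift on single arrays was 0.99 to 1.61 in Del and -0.23 to 0.20 in WT, and its within-slide medians were 1.39 and 1.24. Srxn1, which repairs oxidised peroxiredoxins, read 8.46, 9.05, 8.53 and 8.75 in WT and 12.74, 11.07, 11.74 and 10.85 in Del (log2 difference 2.90, 95% interval 2.09 to 3.71, limma adjusted p = 2.2e-04). Nqo1, a quinone reductase, read 4.84, 5.34, 5.47 and 5.24 and 7.92, 7.03, 8.08 and 7.36, a difference of 2.37. The carbonyl reductase Cbr3 rose by 3.43 and was above background on 2 WT arrays. Hmox1, which degrades heme, rose by 1.84, and WT replicate 2 at 7.90 came close to the lowest Del array at 8.07.

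The glutathione transferase family did not move as a whole. Of 23 members tested, 8 rose, none fell, and the median was 0.10. Beside Gsta1 and Gsta2, the microsomal Mgst3 rose by 2.71, from 7.75, 7.10, 8.07 and 7.09 to 9.93, 10.11, 10.59 and 10.22, and Gstm3, already among the brightest genes of the array in WT, rose by 1.44. Gsta1 and Gsta2 are near copies, and their probes may read both. The letters TGACNNNGC, the core of the antioxidant response element, were found on either strand in the 250 bases before the start of 5 of 17 NRF2 targets with a promoter in the table (29.4%) and of 11.52% of all genes. No match says only that these letters are not in this window.

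Immediate-early and p53 genes rose, and the unfolded protein response hardly moved. Of 17 AP-1 and immediate-early factors tested, 9 rose with a median of 1.18. That median was 0.58 within slide 1, 1.44 within slide 2 and 0.53 with the normexp correction. Jun, the core subunit of AP-1, read 8.49, 8.81, 8.42 and 8.51 in WT and 11.27, 11.10, 11.005 and 11.08 in Del, a difference of 2.56 (95% interval 2.24 to 2.88, limma adjusted p = 3.8e-07). Klf6, a zinc finger factor induced by injury, rose by 3.11, Jund by 1.61 and Egr1 by 2.29. No Del array of Jun, Klf6, Jund or Egr1 overlapped a WT array. Of 22 p53 targets, 12 rose, none fell, and the median was 0.67. Mdm2, the ubiquitin ligase that p53 both induces and is degraded by, rose by 0.95, the polo-like kinase Plk2 by 1.195, and Ddit4l, an inhibitor of mTOR signalling, at least 2.45-fold. The p53 count was 7 without WT replicate 3, WT replicate 4 or scaling and 6 without Del replicate 3. Of 28 genes of the unfolded protein and integrated stress responses, 2 rose, with a median of 0.17. That count was 5 without WT replicate 2 and 1 without WT replicate 1, 3 or 4, Del replicate 3 or 4, or scaling.

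Of 28 TNF receptor and NF-kappaB genes tested, 10 rose and none fell. Tnfrsf12a, the receptor of the cytokine TWEAK, read 6.81, 7.82, 6.52 and 7.40 in WT and 10.05, 9.30, 10.46 and 9.50 in Del, a difference of 2.69 (limma adjusted p = 8.1e-05). Nfkb2, a subunit of the non-canonical pathway, rose by 1.44 and the adhesion molecule Icam1 by 1.14. The count was 4 when Del replicate 3 was left out, 5 without WT replicate 3, and 6 without scaling or with the 2 groups fitted alone.

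Genes induced by interferon formed another rising group. Of 32 tested, 23 rose and none fell, with a median of 1.15. The shift on single arrays was 0.986 to 1.499 in Del and -0.44 to 0.52 in WT, with WT replicate 2 the highest WT array, and the within-slide medians were 1.32 and 1.24. Usp18, which removes ISG15 from proteins and dampens interferon signalling, read 5.67, 7.28, 6.75 and 7.28 in WT and 9.37, 9.12, 9.57 and 9.35 in Del (log2 difference 2.61, 95% interval 2.00 to 3.21, limma adjusted p = 6.3e-05). Irf7, the master factor of type I interferon genes, rose by 1.99, from 8.60, 10.39, 9.54 and 10.49 to 12.01, 11.47, 11.65 and 11.85. The antiviral Oas1a rose by 2.26, Oasl2 by 1.84, Ifi44 by 2.35 and the RNA sensor Ddx58 by 1.54. The WT arrays of these genes spread over more than 1 log2 in 5 of the 6, but stayed below every Del array in all 6. Isg15, the ubiquitin-like modifier itself, rose by 2.04.

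The 120 bases before the start of Isg15 are printed from the same table because they hold the letters GAAA, any 2 bases and GAAA again, the core of the interferon-stimulated response element, in capitals at 78, 72 and 66 bases before the start, where the 3 matches overlap.
Isg15 (minus strand of chr4:156200819-156200938): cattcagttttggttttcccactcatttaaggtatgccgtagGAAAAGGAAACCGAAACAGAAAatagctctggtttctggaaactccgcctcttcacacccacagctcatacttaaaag
On either strand, this core was found in the 250 bases before the start of 12 of 23 interferon-induced genes with a promoter in the table (52.2%), of 9 of the 17 that rose (52.9%) and of 3.46% of all 27025 genes.

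Chemokines and immune cell markers moved less evenly than the interferon genes. Of 22 chemokines and receptors, 3 rose, and the median was -0.16. These were Ccl6 (2.07), Ccl5 (1.88) and Ccl2 (2.01), and the count was 6 without WT replicate 2. Cxcl10, an interferon-induced chemokine, rose at least 4.8-fold. Of 16 markers of resident Kupffer cells, the macrophages of liver, 7 rose and 1 fell, with a median of 0.58. The scavenger receptor Marco rose by 2.50, the macrophage marker Adgre1 by 1.22 and the apoptosis inhibitor Cd5l by 0.96, WT replicate 2 being the highest WT array for each, while the haemoglobin scavenger receptor Cd163 fell by 2.01, from 8.59, 9.13, 9.13 and 8.70 to 6.58, 6.33, 7.35 and 7.24. Clec4f, a lectin that defines Kupffer cells, was 0.63 and not called (limma adjusted p = 0.058). The mean level over the list was 8.09 to 8.41 on the Del arrays and 7.53 to 8.27 on the WT arrays. The count of rises was 4 without WT replicate 1, WT replicate 3 or Del replicate 3, and 2 markers fell without WT replicate 2.

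Of 14 markers of recruited or lipid-associated macrophages, 6 rose and 1 fell, with a median of 0.89. That median was 0.20 within slide 1, 1.41 within slide 2 and 0.48 with the normexp correction. Lgals3, a galactose-binding lectin, read 6.33, 7.44, 6.98 and 6.97 in WT and 10.70, 10.05, 10.90 and 9.77 in Del, a difference of 3.43. The elastase Mmp12 rose by 3.23, with 1 WT array above background, and the fatty acid binding protein Fabp5 fell by 2.21. The mean level over the list was 7.54 to 8.11 on the Del arrays and 6.60 to 7.31 on the WT arrays. Of 12 lymphocyte, 15 sinusoidal endothelial and 12 hepatocyte markers, none was called, and the medians were -0.19, -0.19 and 0.08. Of 11 neutrophil markers, 1 rose, and 2 without WT replicate 2. Of 19 stellate cell markers, 3 rose, among them the metalloprotease inhibitor Timp1 (3.39, 1 WT array above background), and 5 rose without WT replicate 2 or Del replicate 4. In whole liver, fewer cells of a type and less RNA per cell cannot be told apart, nor can more of either, and the part of these markers in the results above was not tested.

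Lysosomal genes rose by smaller amounts. Of 35 tested, 17 rose and none fell, with a median of 0.46 and within-slide medians of 0.39 and 0.58. Hexa, a subunit of the hexosaminidase that breaks down gangliosides, read 10.23, 10.62, 10.08 and 10.23 in WT and 11.55, 11.42, 11.495 and 11.45 in Del (log2 difference 1.19, 95% interval 0.89 to 1.49, limma adjusted p = 9.3e-05). Psap, the precursor of proteins that help degrade sphingolipids, rose by 0.86, the lysosomal growth factor Grn by 1.16, and the proteases Lgmn and Ctsb by 1.02 and 0.72. Each of these genes was separated between the groups. The count of rises was 11 without WT replicate 4 or scaling and 10 without Del replicate 3. Macrophages are rich in lysosomes, and the macrophage lists above moved in the same direction. Their part in this list was not tested.

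In the pathway of the targeted enzyme, some genes rose. Of 9 de novo ceramide synthesis genes tested, 4 rose and none fell, with a median of 0.42. Sptlc2 and Sptlc1 are the subunits of serine palmitoyltransferase, which starts the pathway. Sptlc2 read 6.01, 6.38, 5.54 and 5.65 in WT and 7.38, 6.81, 7.59 and 7.03 in Del, a difference of 1.31 (95% interval 0.88 to 1.74, limma adjusted p = 7.6e-04), and Sptlc1 was 0.68 higher. Degs1, the desaturase that turns dihydroceramide into ceramide, rose by 0.93. Kdsr, the reductase of the second step, was 0.81 higher and was called, but the call was lost without WT replicate 3 (0.75), WT replicate 4 (0.75) or Del replicate 3 (0.62), and without scaling. On the 4 Del arrays Sptlc2, Sptlc1 and Degs1 were above all WT arrays, by a margin under 0.1 for Sptlc1 and Degs1, where WT replicate 2 was the highest.

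Of the other ceramide synthases, 4 were tested and 1 was called. Cers5, which prefers palmitoyl chains, was 0.77 higher (limma adjusted p = 0.040), and the call was lost without WT replicate 4 (0.57), Del replicate 1 (0.79), Del replicate 3 (0.61), Del replicate 4 (0.82) or Flox replicate 3 (0.77). Cers6, with the same preference, was 0.61 (limma adjusted p = 0.11) and Cers4 -0.43 (limma adjusted p = 0.099), neither being called. Among genes downstream of ceramide, the ceramide kinase Cerk rose by 1.06, the lactosylceramide synthase B4galt5 by 1.27 and the glycolipid transfer protein Gltp by 1.36. Ugcg, the glucosylceramide synthase, was 1.13 higher and called, with the call lost without WT replicates 1 (1.16), 3 (1.03) or 4 (0.94) or Del replicates 3 (0.81) or 4 (1.04). Where 8.85% of all genes rose and 4.38% fell, 2 of 17 turnover genes rose and 1 fell, and 4 of 11 genes of complex sphingolipids rose. The last count was 2 without WT replicate 1, WT replicate 3, Del replicate 3, Del replicate 4 or scaling. Turnover rises numbered 4 with the normexp correction and 5 with array weights. The turnover rises came to 1 without H/A replicate 2, WT replicate 1, 3 or 4, Del replicate 3 or 4, Flox replicate 2, 3 or 4, or scaling, and the turnover fall was lost without WT replicate 1 or 3, Del replicate 1 or 3, or scaling.

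Fatty acid elongation genes were not shifted together. Of 13 tested, 2 rose and 1 fell, where 8.85% of all genes rose and 4.38% fell. The fall was that of Elovl3, which extends saturated chains into the very long range and is male-biased in liver. It read 10.82, 11.93, 9.99 and 11.35 in WT and 6.28, 6.57, 4.001 and 6.93 in Del, a difference of -5.08 (95% interval -7.84 to -2.31, limma adjusted p = 0.018). All Del arrays lay below all WT arrays, but the call was lost without Del replicate 3 (-4.43). The rises in this list numbered 0 without Del replicate 3 or scaling, 1 without WT replicate 1 or 4, and 4 without WT replicate 2 or Del replicate 2.

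**Figure D3:**
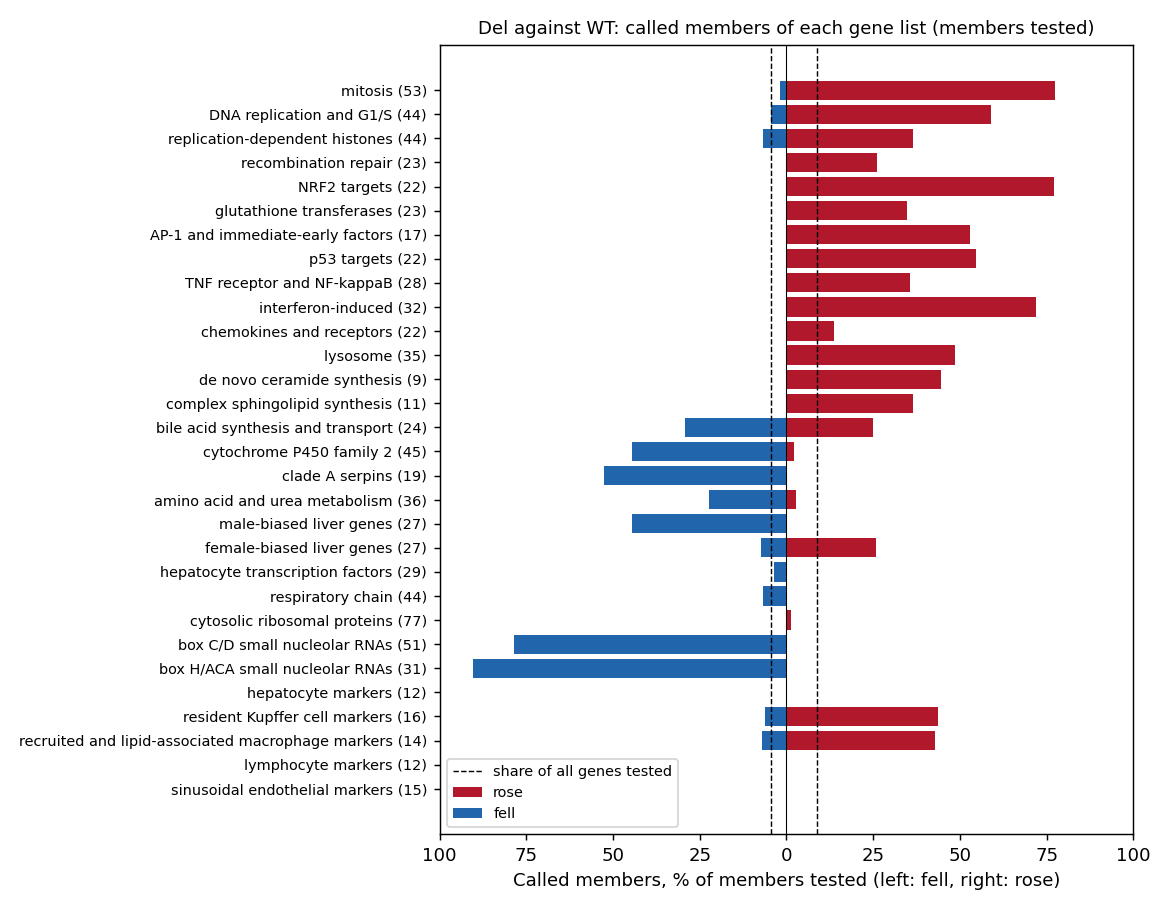
Share of the tested members of 30 gene lists (x axis, percent) that rose (right, red) or fell (left, blue) in Del against WT, with the number tested in parentheses and the share among all genes tested as dashed lines (8.85% and 4.38%). Mitosis, NRF2, interferon and replication genes lie far to the right, and small nucleolar RNAs, clade A serpins, CYP2 and male-biased genes to the left, while hepatocyte, lymphocyte and endothelial markers have no called member.

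Bile acid genes moved in both directions. Of 24 genes tested, 6 rose and 7 fell. Abcb4, which moves phosphatidylcholine into bile, read 11.41, 11.63, 11.51 and 11.54 in WT and 12.58, 12.73, 13.02 and 12.84 in Del (log2 difference 1.27, 95% interval 0.98 to 1.55, limma adjusted p = 5.0e-05). Abcb1a, a multidrug export pump, rose by 1.71 (3 WT arrays above background), the basolateral exporter Abcc4 by 1.54 and Slc51b, a subunit of the basolateral organic solute transporter, by 2.93, with 1 WT array above background. Slc10a1, the sodium-dependent bile acid importer, read 12.21, 12.45, 12.39 and 12.33 in WT and 10.54, 11.18, 10.91 and 11.73 in Del, a difference of -1.25, and the organic anion carriers Slco1a4 and Slco1b2 fell by 1.75 (3 Del arrays above background) and 0.97. None of these 7 transporters overlapped between the groups. Cyp7b1, of the alternative pathway of bile acid synthesis, fell by 3.14. Cyp7a1, the rate-limiting enzyme of the classic pathway, was 0.79 (limma adjusted p = 0.49) with WT arrays from 7.10 to 10.27, and the bile salt export pump Abcb11 was -0.38 (limma adjusted p = 0.20), neither being called. With array weights and within slide 2 the sign of the Cyp7a1 difference turned.

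Drug-metabolising genes moved in both directions, and those of cytochrome P450 family 2 mostly fell among the called. Of 38 genes of phase I and II xenobiotic metabolism tested, 6 rose and 9 fell, with a median of -0.28, and 5 fell without scaling. Of 45 genes of cytochrome P450 family 2 tested, 20 fell and 1 rose, with a median of -0.63, and the list's shift on single arrays was -0.81 to -0.33 in Del and -0.05 to 0.10 in WT. Without scaling 7 fell. Cyp2c37 read 11.05, 11.53, 11.17 and 11.13 in WT and 9.95, 10.09, 10.11 and 10.15 in Del (log2 difference -1.14, 95% interval -1.46 to -0.83, limma adjusted p = 2.0e-04). Cyp2d40 fell by 1.54, Cyp2c40 by 1.38 and Cyp2c29 by 0.88. The members are close paralogs, so a probe may read more than one of them. The rise was that of Cyp2c38 (2.21), whose call was lost without WT replicate 1 (1.75), WT replicate 4 (2.33), Del replicate 1 (2.06) or Del replicate 3 (1.84). The largest difference in the family, 3.95, was that of a member that was not called. Rises numbered 4 without Flox replicate 1 or with the 2 groups fitted alone. Of 29 genes of families 3 and 4, 4 rose and 4 fell, and the falls numbered 2 without WT replicate 1, WT replicate 4, Del replicate 1, Del replicate 3, scaling or the filter on dim probes and 7 with the 2 groups alone. Cyp3a11, the main drug-induced P450 of mouse liver, rose from 13.15, 13.30, 13.51 and 13.14 to 14.90, 15.06, 15.21 and 15.26, a difference of 1.83 (limma adjusted p = 5.3e-05), and the xenobiotic receptor Ahr rose by 1.29.

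Of 34 glucuronosyltransferases and sulfotransferases, none rose and 6 fell, among them Sult5a1 (-3.94) and Sult2a8 (-2.75), a bile acid sulfotransferase. The count was 3 without WT replicate 3, WT replicate 4, Del replicate 3 or scaling. The acetyltransferase Nat8 fell by 1.43. Secreted serpins fell too. Of 19 clade A serpins, 10 fell and none rose, with a median of -0.74, and 6 fell without scaling. Serpina1b, 1 of the mouse alpha-1-antitrypsins, read 14.57, 14.36, 13.94 and 14.32 in WT and 12.90, 13.08, 13.29 and 13.14 in Del, a difference of -1.19, and Serpina1d was 1.11 lower. The alpha-1-antitrypsin genes are near copies and may share signal. Of 36 amino acid and urea cycle genes 8 fell and 1 rose, with a median of -0.26. Tdo2, the first enzyme of tryptophan breakdown, fell by 0.80. The rise was lost without WT replicate 1. The count of falls was 5 without H/A replicate 2 or Flox replicate 3, 3 without WT replicate 1, WT replicate 4, Del replicate 1 or scaling, 2 without WT replicate 3 and 1 without Del replicate 3.

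Among lipid genes, several of uptake rose and several of synthesis fell. Of 30 genes of lipid uptake and lipid droplets, 6 rose and 3 fell, with a median of -0.00. Lpl, the lipase that frees fatty acids from lipoproteins, read 8.96, 8.60, 8.37 and 8.08 in WT and 10.76, 11.09, 10.59 and 10.47 in Del (log2 difference 2.23, 95% interval 1.71 to 2.75, limma adjusted p = 6.8e-05). Pparg, the nuclear receptor of fat storage, rose by 1.99 and the fatty acid translocase Cd36 by 1.07. Of 19 lipogenesis genes, 2 rose and 4 fell. Acacb, the acetyl-CoA carboxylase tied to mitochondria, fell by 1.83, from 10.03, 10.25, 10.004 and 10.22 to 8.74, 8.39, 7.72 and 8.35. Thrsp, a regulator of fatty acid synthesis, fell by 2.77 and malic enzyme Me1 by 0.98, while the desaturase Scd2, low in adult liver, rose by 2.30. The 3 fallen genes and the 3 risen uptake genes were each separated between the groups. Without scaling, 2 lipogenesis genes fell, while 8 fell with the normexp correction and 7 with array weights. Of the 2 lipogenesis rises, 1 failed the test without WT replicate 1, 3 or 4, H/A replicate 2 or 3, Del replicate 1, 3 or 4, or Flox replicate 2 or 4.

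Of 22 cholesterol synthesis genes, 1 rose and 2 fell, where 8.85% of all genes rose and 4.38% fell. Fdps, farnesyl diphosphate synthase, fell by 0.89. Without WT replicate 2 there were 2 rises, and with the normexp correction 4 falls. Abcg1, a cholesterol exporter and target of the nuclear receptor LXR, rose by 1.81 among 24 lipoprotein and LXR genes of which 4 rose and 1 fell. Those rises numbered 2 without H/A replicate 1 or 3, WT replicate 1, 3 or 4, Del replicate 3 or 4, any 1 Flox array or scaling, and the falls 2 without Del replicate 4 and 0 without WT replicate 1, 3 or 4, Del replicate 1 or 3, or scaling. Of 23 genes of fatty acid oxidation, 2 rose, a share near that of all genes, among them the medium-chain dehydrogenase Acadm (0.77). The other was lost without any 1 of the 16 arrays other than WT replicate 2, Del replicate 2 and Flox replicate 1.

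Many male-biased liver genes fell in these male mice. In mouse liver, such genes are set by the rhythm of growth hormone secretion acting through STAT5b. Of 27 male-biased genes tested, 12 fell and none rose, with a median of -1.21 and within-slide medians of -1.69 and -0.99. For Del minus Flox the median was -0.76, with 11 called lower and none higher. Between Flox and WT, 1 member was called lower in Flox. Beside Hsd3b5, Serpina4-ps1, Elovl3 and Cyp7b1, the peroxisomal hydrolase Nudt7 fell from 6.48, 7.04, 5.85 and 6.64 in WT to 4.14, 4.42, 3.76 and 4.41 in Del, a difference of -2.32, and the complement regulator Susd4 by 2.32. Nudt7 was above background on 3 Del arrays and Susd4 on 1. Of 8 major urinary protein genes, whose products are male pheromone carriers, 1 fell (Mup3, -3.53), but all 8 were lower in Del, with a median of -2.75, and 7 were called with the 2 groups fitted alone or without H/A replicate 3. Without H/A replicate 4 or Flox replicate 1, 2 were called, and none without Del replicate 3. Mup3 read 14.11, 14.24, 14.03 and 14.13 in WT and 9.91, 11.33, 9.80 and 11.37 in Del. The male-biased count was 7 without Del replicate 3, where Mup3 (-3.26) and Elovl3 (-4.43) lost their call. The major urinary protein genes are near copies.

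Of 27 female-biased genes, 7 rose and 2 fell, with a median of 0.25 and differences from -1.38 to 3.95. Cyp3a41a, a female-specific P450, read 9.63, 9.86, 10.09 and 9.37 in WT and 11.54, 11.61, 11.51 and 11.36 in Del, a difference of 1.77. Members of family 3 are close paralogs too, so the Cyp3a41a probe may also read Cyp3a11 or others. Rtn4, a shaper of the endoplasmic reticulum, rose by 1.83 and the magnesium transporter Nipal1 by 3.32, with 2 WT arrays above background, while Cyp2c40 fell. With the 2 groups fitted alone, 11 rose. Of 18 genes of growth hormone, STAT5 and IGF1 signalling, 1 rose and 3 fell. The growth hormone receptor Ghr read 10.34, 10.26, 10.13 and 10.17 in WT and 8.88, 9.32, 8.96 and 9.69 in Del, a difference of -1.01 (limma adjusted p = 0.0069), and the cytokine receptor Lifr fell by 1.57. Onecut1, also called HNF6, fell by 2.74, and Del replicate 3 at 10.08 overlapped WT replicate 3 at 9.94. Igfbp1, an IGF-binding protein, rose by 1.82, and Igf1 was -0.45 (limma adjusted p = 0.12), not called.

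Of the 50 tested genes nearest to Cers2, 25 on each side in the GRCm38.p6 annotation, 9 rose and 2 fell, with a median of -0.07, where 8.85% of all genes rose and 4.38% fell. The falls were the selenium-binding proteins Selenbp1, from 12.19, 12.24, 11.09 and 12.18 in WT to 9.47, 9.81, 10.10 and 10.11 in Del (-2.05), and Selenbp2 (-1.83), a male-biased gene. The rises with the smallest p were those of Mtmr11, a myotubularin-like protein (1.93), and Cdc42se1, an effector of the GTPase Cdc42 (1.11). These 2 genes and Selenbp1 were chosen after their values were seen. The Del minus Flox differences of Selenbp1 and Selenbp2 were 0.05 and 0.09, and neither was called. Both were also lower in Flox than in WT, with differences of -2.11 and -1.91 (limma adjusted p = 0.0012 and 6.6e-04). Hsd3b3 and Hsd3b6, steroid dehydrogenases farther along the same chromosome, were -1.31 and -1.37 against WT and 0.32 and 0.25 against Flox, where Hsd3b5 was -5.08 and was called. In Flox against WT, Hsd3b3 and Hsd3b6 were -1.63 and -1.62 (limma adjusted p = 0.028 and 0.037).

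Tissue-remodelling and fetal genes rose in part. Of 22 fetal liver and liver tumour markers, 8 rose and 1 fell, with a median of 0.97. That median was 0.42 within slide 1, 1.27 within slide 2 and 0.30 with the normexp correction. Of the 22, 15 were above background on all 8 arrays. Anxa2, a calcium-dependent membrane protein, read 8.16, 8.71, 8.05 and 8.29 in WT and 12.52, 11.69, 12.59 and 11.24 in Del (log2 difference 3.71, 95% interval 3.02 to 4.41, limma adjusted p = 1.3e-05). Golm1, a Golgi protein used as a serum marker of liver cancer, rose by 3.53 and the mRNA-binding oncofetal protein Igf2bp3 by 2.29, with 3 WT arrays above background. Afp, alpha-fetoprotein, was -0.13 and not called, and its sign turned without scaling and within slide 1. The fall in this list was lost without WT replicate 1, 3 or 4, Del replicate 1 or 3, or scaling, and 2 fell without WT replicate 2. Of 17 annexins and S100 proteins, 7 rose, among them S100a11 (2.94). Krt8, a keratin of simple epithelia, rose from 11.33, 11.67, 11.495 and 11.41 to 14.84, 14.12, 14.79 and 13.48, a difference of 2.83, 1 of 3 of 26 keratins that rose. The ecto-nucleotidase Nt5e rose by 3.03, 1 of 6 rises and 1 fall among 20 Hippo and YAP targets. The 1 fall among the Hippo and YAP targets was lost without WT replicate 3 or 4, Del replicate 1, 3 or 4, or scaling, and 2 fell without Del replicate 2. Of 25 junction genes, 8 rose and 1 fell, and the fall was lost without WT replicate 3 or Del replicate 3 and became 2 without WT replicate 2. The tight junction protein F11r rose by 1.45 and E-cadherin, Cdh1, by 1.91, with WT replicate 2 at 9.16 close to the lowest Del array at 9.30.

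Small nucleolar RNAs fell almost as a class. They guide chemical modification of ribosomal RNA, box C/D members by methylation and box H/ACA members by pseudouridylation, and most are cut from introns of ribosome and translation genes. Of 82 tested, 68 fell and none rose, against 4.38% of all genes falling, and 29 of the falls were of at least 2 log2. Of 51 box C/D RNAs 40 fell, with a median of -1.09, and of 31 box H/ACA RNAs 28 fell, with a median of -1.85. The box H/ACA shift on single arrays was -2.10 to -1.81 in Del and -0.20 to 0.28 in WT, and that of box C/D was -1.08 to -0.92 and -0.13 to 0.21. Within slides the medians of both classes together were -1.25 and -1.46. With the normexp correction the median was -0.58 for both classes together, -0.50 for box C/D and -0.93 for box H/ACA. Of the 82, 58 were above background on all 8 arrays, 38 of 51 box C/D and 20 of 31 box H/ACA RNAs. A member could pass the filter without its Del arrays. The medians, shifts and falls of at least 2 log2 therefore rest in part on readings at background and are not fold sizes. The probes may read precursors or host introns as well as the mature RNAs, and which of these fell was not tested.

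The probes of 4 of these RNAs are printed, as the scanner files give them, 5′ to 3′, because the falls rest on what these letters bind. Capitals mark CTGA, the letters of the D box, in the box C/D probes.
Snord69 (box C/D): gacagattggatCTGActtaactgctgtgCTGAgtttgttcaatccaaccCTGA
Snord82 (box C/D): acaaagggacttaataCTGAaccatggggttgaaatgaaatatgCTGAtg
Snora30 (box H/ACA): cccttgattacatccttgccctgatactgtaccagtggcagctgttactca
Snora21 (box H/ACA): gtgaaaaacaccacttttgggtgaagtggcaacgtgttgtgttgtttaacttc
CTGA was found on the printed strand in 41 of 57 box C/D probes of 45 to 54 bases (71.9%), in 8 of 31 box H/ACA probes (25.8%) and in 26.1% of 51714 probes of that length. Snord69 read 8.18, 8.13, 8.60 and 8.29 on the WT arrays and 4.27, 3.69, 3.61 and 4.03 on the Del arrays, a difference of -4.40 (95% interval -5.51 to -3.28, limma adjusted p = 1.1e-04). Snora30 read 10.63, 9.46, 10.37 and 10.42 and 5.54, 5.70, 5.16 and 5.82, a difference of -4.67. Snora21 was not above background on any Del array and fell at least 16.2-fold, Snord111 at least 5.63-fold, Snora2b at least 5.26-fold and Snora15 at least 5.13-fold. The WT arrays of these 6 RNAs lay at least 2.5 log2 above the Del arrays. Snora24 and Snora16a, with the smallest p of their class, fell by 2.38 and 2.51, and their 4 WT readings lay within 0.5 log2.

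The genes that enclose these RNAs did not fall with them. For 57 of the 68, 1 enclosing gene was tested, 46 different genes in all, of which 3 rose (Ckap5, 1110038B12Rik and Snx5) and none fell. Their differences ran from -0.38 to 0.86, with a median of 0.14. Gnl3, a nucleolar GTPase gene that encloses Snord69, read 9.63, 9.91, 9.12 and 9.67 in WT and 9.12, 9.16, 9.73 and 9.75 in Del (-0.14, limma adjusted p = 0.62). Rpl23, a ribosomal protein gene that encloses Snora21, was 0.17 (limma adjusted p = 0.49). Within slide 1 the sign for Rpl23 turned, and without scaling or within slide 2 that for Gnl3. Of 77 cytosolic ribosomal protein genes tested, 1 rose and none fell, and rises numbered 9 without WT replicate 2, 3 without Del replicate 2, 2 without H/A replicate 1 or 3 or Del replicate 1 or 4, and 0 without scaling. Of 15 Snhg host genes, 2 rose, and 1 without WT replicate 1, WT replicate 3, Del replicate 3 or scaling. Snhg18 was 1.74 higher while Snord123, which it encloses, was 0.57 and not called (limma adjusted p = 0.22). Of 7 Cajal body RNAs, 2 fell, and 4 with the scanner files paired by label in place of the table.

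**Figure D4:**
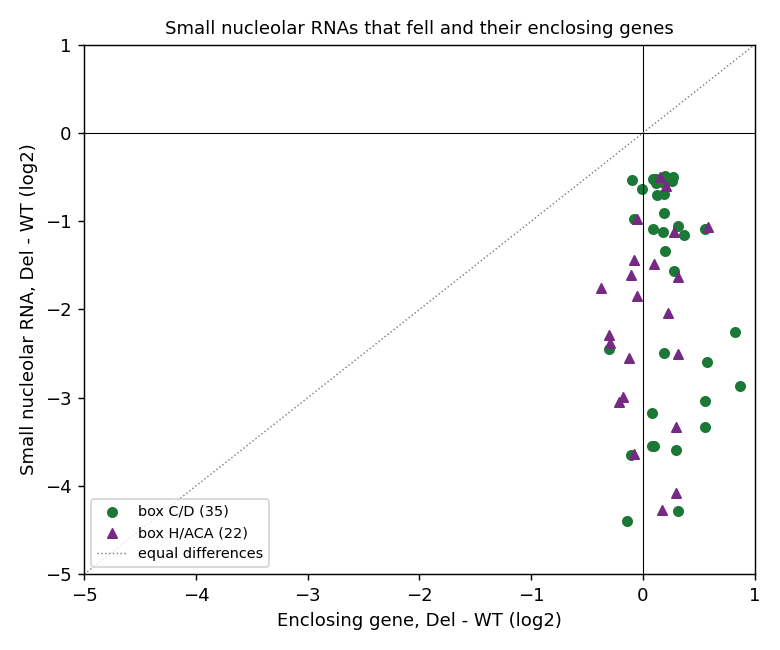
Log2 difference Del minus WT of the 57 small nucleolar RNAs that fell (y axis) against that of the gene enclosing each (x axis), by class, with the dotted line where both would be equal. All points lie below -0.4 on the y axis and between -0.38 and 0.86 on the x axis.

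Of 281 microRNA precursor probes tested of 1001 on the array, 11 fell and 1 rose, where 4.38% of all genes fell and 8.85% rose. The rise was lost without WT replicate 3, WT replicate 4 or scaling, and became 2 without H/A replicate 1 or 3. The fallen count was 43 without WT replicate 2, 24 without Del replicate 2, 4 without WT replicate 3 or Del replicate 3 or scaling, and 30 with slide as a block. Mir6516, which lies in Snhg20, read 10.84, 9.95, 10.995 and 10.63 in WT and 8.32, 8.49, 7.54 and 8.60 in Del, a difference of -2.37 (limma adjusted p = 3.4e-04). Mir26a-2 read 2.24, 3.91, 4.07 and 3.44 in WT, above background on 3 arrays, and 1.19, 2.07, 1.200 and 1.21 in Del, above background on none, so no fold is given (limma adjusted p = 0.016). Its call was lost without WT replicate 3 or Del replicate 3, and the enclosing gene Ctdsp2, 0.18, was not called. The array reads precursors or host transcripts and not mature microRNAs. The mature sequences of these 2 genes are printed from RefSeq (GRCm38.p6) with the seed, bases 2 to 8, in capitals.
mmu-miR-26a-5p: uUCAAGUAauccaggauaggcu
mmu-miR-26a-2-3p: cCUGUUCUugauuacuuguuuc
mmu-miR-6516-5p: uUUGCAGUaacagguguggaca
mmu-miR-6516-3p: uCAUGUAUgauacugcaaacag
The 4 seeds differ. Ttc39c, a gene that encloses another of the 11, itself fell by 1.90.

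**Figure D5:**
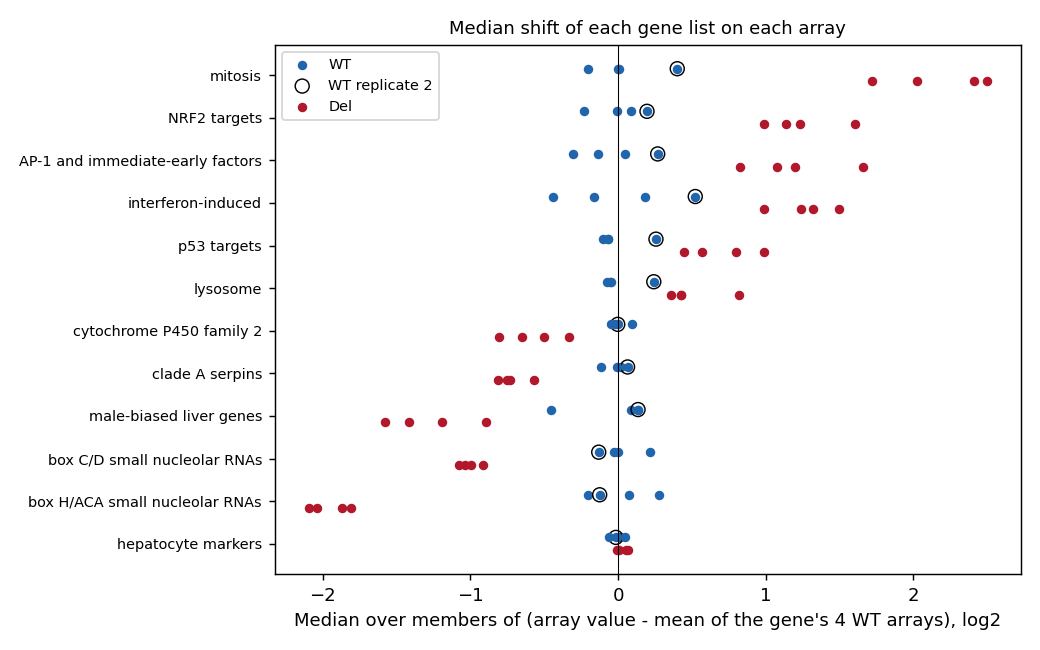
Median shift of the members of 12 gene lists on each array (x axis, log2, each gene set to the mean of its 4 WT arrays), in WT and Del, with WT replicate 2 ringed. Mitosis genes shift by 1.72 to 2.50 on the Del arrays and box H/ACA RNAs by -2.10 to -1.81, while hepatocyte markers stay within 0.1 of zero on all 8 arrays.

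Other liver functions are set beside the 8.85% of all genes that rose and the 4.38% that fell. Of 29 hepatocyte transcription factors, Onecut1 was the 1 called, and 3 were without WT replicate 2 and 2 without Del replicate 3. Hnf4a, the central nuclear receptor of hepatocytes, was -0.23 (limma adjusted p = 0.26). Albumin, Alb, was 0.12, near the top of the scale in both groups, and its sign turned with the scanner files. Of 35 genes of glucose metabolism and insulin signalling, 3 rose, and 1 without Del replicate 3, 5 without Del replicate 1 and 8 without WT replicate 2. Of 44 respiratory chain genes, 3 fell with a median of -0.19. This count was 1 without H/A replicate 2 and 0 without WT replicate 1, 3 or 4, Del replicate 1 or 3, or scaling. It was 9 with the normexp correction and 5 with trend and robust moderation. Of 34 proteasome genes, 5 rose, and 9 without WT replicate 2, 2 without WT replicate 1, Del replicate 1, Del replicate 4 or scaling, and 1 without WT replicate 3, WT replicate 4 or Del replicate 3. Of 37 complement and coagulation genes, 5 rose and 4 fell, and 8 rose with array weights or with trend and robust moderation. Its rises numbered 2 without WT replicate 1, WT replicate 3, Del replicate 3 or scaling and 3 without WT replicate 4, and its falls 2 without WT replicate 1, Del replicate 1 or Del replicate 3 and 1 without scaling.

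Del liver was then set against the other 2 lines directly. Between Del and H/A, 4 genes were called (0.0127%), 1 higher (0.00318%) and 3 lower (0.00953%) in Del, and 2470 genes (7.85%) had an unadjusted p under 0.05. Kif20b read 4.44, 5.03, 5.04 and 4.73 in Del, above background on 3 arrays, and was 0.98 higher than in H/A, where 1 array was above background. Lower in Del were Snord82 (-1.04), Ccdc24, a coiled-coil protein, and a transcript without a symbol. The last pair was above background on no Del array, so no size is given for it. The median Del minus H/A difference was 0.34 for mitosis genes, 0.29 for NRF2 targets, 0.15 for interferon-induced genes and -0.49 for small nucleolar RNAs, beside 2.32, 1.24, 1.15 and -1.43 for Del minus WT. The 2 contrasts share the Del arrays. The medians of 2.32 for mitosis genes and -1.43 for small nucleolar RNAs rest in part on readings at background. A count of 4 does not show that the 2 lines are alike. For Atf3 the interval of Del minus H/A was -0.62 to 1.30, for Hsd3b5 -2.34 to 1.64 and for Snord69 -3.38 to -1.15.

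Between Del and Flox, 10948 genes were called (34.8%), 5231 higher in Del (16.6%) and 5717 lower (18.2%). Of the mitosis genes 41 were higher in Del and 3 lower, of the NRF2 targets 16 were higher and none lower, of the interferon-induced genes 22 higher and 1 lower, and of the small nucleolar RNAs 79 were lower. Gsta1 was 4.12 higher than in Flox and Usp18 1.68, while Snord69 was -4.52 and Hsd3b5 -5.08. Del minus Flox and Del minus WT share the Del arrays too. Between Flox and WT, 7 genes were called (0.0222%), 1 higher (0.00318%) and 6 lower (0.0191%) in Flox, and 1827 had an unadjusted p under 0.05 in that limma test. Selenbp1, Selenbp2, Hsd3b3 and Hsd3b6 are 4 of the 6 that were lower.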

How the data were processed

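Total RNA of 16 livers was hybridised to 1-colour arrays. The scanner files hold spot intensity, made with Agilent Feature Extraction 11 per the submitters' processing notes, which also name Partek. The deposited table holds log2 values with scale and centring not stated; its sorted columns differ by at most 0.0063, so its columns share 1 distribution. Less each probe's mean, each column correlated with the log2 intensity of its file paired by label at r from 0.884 to 0.994.

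Probes were named by matching their transcript accessions, without versions, to RefSeq (GRCm38.p6). Of 60037 probes, 36264 have 1 symbol and 23773 none. Genes well above background on at least 4 of the 16 arrays were kept, each by its brightest probe, which left 31484 genes (17666 with a symbol; the others keep the accession). The test was limma 3.58.1 (R 4.3.3) with the 4 groups in 1 model and contrasts Del minus WT, Del minus H/A and Del minus Flox. It was checked on simulated data with 200 changed genes among 31484. At Del minus WT it recovered 7.3% of changes of 0.5 log2, 64% of changes of 1 log2 and 89.3% of changes of 2 log2. The simulated noise was normal and independent between genes, and 4165 genes were called in the data. These rates therefore need not hold for the comparison itself.

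Named genes are the 12 largest rises and falls and members of 66 lists and families, chiefly those with the smallest p. A few members are not reported here. The comparison, the lists and the rules were chosen with earlier results of these data known. Alternatives were the scanner files, normexp (offset 50), no scaling, other filters and probe rules, 2 groups alone, slide, moderation, weights and each array left out.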

Additional observations from a re-analysis of the deposited data

Results flagged for a closer look

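Among 334 groups of 4 arrays (167 named genes in Del and in WT), 21 (6.29%) held 1 array whose gap to the next, divided by the range of the group, was above Dixon's 95% critical value for 4 arrays, and chance gives about 1 in 20. In 10 of them the array was WT replicate 2. It was the high array for Nusap1 (0.908), Chaf1a (0.913), Hmox1 (0.834), Ddit4l (0.912), Nfkb2 (0.851), Ccl6 (0.834), Abcg1 (0.836), Cdh1 (0.869), Ccdc24 (0.936) and Top2a (0.845). For all of these but Ccdc24, which was lower in Del, that is on the side of the Del arrays. WT replicate 3 was the low array for Selenbp1 (0.947), Selenbp2 (0.948) and Onecut1 (0.864), and WT replicate 1 the high array for Cyp2c29 (0.863). Among the Del arrays, replicate 1 stood apart for Snord111 (0.983), Abcb1a (0.932) and Tdo2 (0.852), replicate 2 for Abcb1b (0.881) and Mir26a-2 (0.979), and replicate 3 for Gins2 (0.925) and Igfbp1 (0.872).

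For 4 genes the difference from WT was not the same in Del and in H/A by the limma test of Del minus H/A. These differences were 0.98 for Kif20b, -1.04 for Snord82, -1.77 for Ccdc24 and -1.85 for XR_375389.1, a transcript without a symbol. Ccdc24 and this transcript were well above background on no Del array, so their values are readings at background and not sizes.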

How the results depend on the processing

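Of the 154 called genes that are named, 146 kept their call without each of the 16 arrays, all 154 with the files paired by label and with slide as a block, 145 without scaling, 137 within slide 2 and 19 within slide 1, where Del has 1 array that is assumed to vary like the rest. No paired analysis was possible because the labels carry no replicate numbers. Depth on an array is signal over background, which bounds genes at background. Without the 6 samples whose listed file is another array's, an alternative chosen after seeing the data, 118 of 154 kept their call.

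With the files as listed, 1 gene was called in Del against WT and 0 against Flox, and the NRF2, mitosis, interferon, male-biased, lysosome, CYP2 and small nucleolar RNA counts were 0. Without scaling, Del against WT gave 2244 calls, Del against H/A 34 and Del against Flox 4366, with lysosome 11 and CYP2 7. Within slide 1 the counts were 141, 75 and 160, with NRF2 1, mitosis 8, male-biased 1 and 0 for interferon, lysosome, CYP2 and small nucleolar RNAs. Within slide 2 they were 2550, 262 and 3503, with lysosome 10 and CYP2 5. Array weights gave 6381 calls against WT and 9 against H/A. Without the 6 samples, the counts were 1258, 0 and 245, with NRF2 11, interferon 10, lysosome 6, CYP2 4 and small nucleolar RNAs 37. With a difference of at least 1 log2 required, 1590 genes were called against WT and 2385 against Flox, with lysosome 5 and CYP2 8. Del against H/A gave 0 calls with the files paired by label, normexp, the filter on the 8 arrays, the 2 groups alone and slide as a block, 1 with no filter and 2 with trend and robust moderation.

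Leaving out 1 array gave 2189 to 7174 calls against WT, 0 to 7 against H/A and 5098 to 12283 against Flox. It gave 14 to 19 for NRF2, 38 to 41 for mitosis, 17 to 24 for interferon, 7 to 13 for male-biased genes, 10 to 20 for lysosome, 15 to 21 for CYP2 and 48 to 69 for small nucleolar RNAs. Without WT replicate 2 these 7 counts were 19, 41, 24, 13, 20, 20 and 69.

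The sign turned for Ncapd2 with the mean of probes (0.17), Cyp7a1 within slide 2 (-0.22) and with array weights (-0.12), Afp without scaling (0.0090) and within slide 1 (0.26), Gnl3 without scaling (0.013) and within slide 2 (0.15), Rpl23 (-0.16) and Ctdsp2 (-0.39) within slide 1, and Alb with the files paired by label (-0.058) or as listed (-0.057). Of these genes, Ncapd2 alone was called. The cause of these changes was not tested.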
